A study of Mus musculus with 10 samples.

Results

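The blood coagulation genes described here are 10 genes that encode plasma clotting factors and the proteins that oppose or undo clotting: F7, F11, F12, F9, F10, F5, F2, Proc, Serpinc1 and Plg. They were chosen by gene symbol, and where a gene had several probe sets, the one with the highest mean signal over all 10 arrays was used. They are 10 of the 18193 genes named on the array, and all 10 were among the 11021 genes that passed the filter on low signals. Their mean signals were above those of 77.2% (F11) to 99.6% (Plg) of the genes that passed. Shares over all genes therefore set them beside mostly dimmer genes. Liver RNA of 129/B6 mice was hybridised to Affymetrix arrays. Among mice of 11 weeks, wild-type liver and Gnmt knockout liver gave 2 arrays each, a female and a male pool of RNA from 3 mice per pool. Aged Gnmt knockout mice gave the remaining 6 arrays, each of a single tissue: dysplastic nodules from a female of 21 months, a hepatocellular carcinoma (HCC) from a male of 18 months, another HCC from a female of 14 months, and the liver adjacent to each. Lesions were matched to adjacent liver by sex and age, because the labels give no mouse numbers. All aged tissues were knockout, so no aged wild-type liver was compared, and the labels do not say how the Gnmt gene was inactivated.

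Hepatocytes make most plasma clotting factors and secrete them as inactive precursors. Factor VII bound to tissue factor starts the extrinsic arm of clotting, factors XII, XI and IX carry the intrinsic arm, and both arms meet at factor X, which with its cofactor factor V turns prothrombin into thrombin. Antithrombin and activated protein C restrain this cascade, and plasmin, made from plasminogen, dissolves the fibrin clot. Prothrombin, factors VII, IX and X and protein C work only after vitamin K dependent carboxylation of glutamates. Gnmt encodes glycine N-methyltransferase, a liver enzyme that consumes the methyl donor S-adenosylmethionine.

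The Gnmt signal was 59473 and 52140 in the wild-type pools, 190 and 245 in the young knockout pools, and from 11.7 to 329 in the 6 aged arrays. Array medians lay between 77.4 and 102.4, and precision is limited by how few arrays there are. The young and aged arrays also differed in their hybridisation controls, whose BioC signal was 2.62 to 3.16 times the BioB signal on young and 0.92 to 1.08 times on aged arrays. The wild-type female pool stood apart from the other young pools in clock genes, with an Arntl signal of 911.5 against 22.2 to 85.2 and a Dbp signal of 190.6 against 8414 to 11097. Clock genes also differed among the aged arrays, where Arntl ranged from 13.6 to 847.2 and Dbp from 42.2 to 7797.6. The Actb signal ratio between 3' and 5' probe sets, which reflects RNA integrity, was 2.6 and 2.62 for wild-type pools, lower than the 3.18 and 3.38 of the young knockout pools. The same ratio for Gapdh overlapped, at 0.94 and 0.98 for wild-type pools and 1.09 and 0.95 for the male and female knockout pools. The part of these differences in the results was not tested. In whole tissue, fewer hepatocytes and less RNA per hepatocyte cannot be told apart.

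In liver without Gnmt at 11 weeks, the clotting genes had lower signals than in wild-type liver. The fitted log2 difference was below 0 for 10 of 10 genes, but for 7 of 10 when arrays were centred on their 75th percentile, which raised the median of all genes by 0.15. Below 0 were also 54.3% of all genes tested. The median difference was -0.34 for the 10 genes and -0.05 for all genes, and after that centring -0.19 and 0.10. F11, F7, Proc and F5 had the largest differences, and F9, Serpinc1 and F10 had differences near 0. Both knockout pools were below both wild-type pools for 8 of 10 genes, where 26.1% of all genes were, and for 7 of 10 with the centring. F10 and Serpinc1 were the genes whose pools overlapped.

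None of the 10 genes passed the test. In limma with Benjamini-Hochberg adjustment over all genes, 0 of 10 were called at an adjusted p below 0.05, where 1.76% of all genes were called (95 higher and 99 lower, or 257 higher and 103 lower with centring on the 75th percentile). An unadjusted limma p below 0.05 was reached by 4 of 10, all lower, where 10.3% of all genes reached it in that direction. The fit had 1 residual degree of freedom, and in simulated data such fits made more false calls than the threshold allows. Its errors came largely from the spread shared across genes. The rest came from how far the genotype difference of a gene departed between the female and male pools. With each pool left out in turn, in a model over the other 9 arrays, the median difference of the 10 genes was -0.09 without the wild-type female, -0.60 without the wild-type male, -0.07 without the knockout male and -0.60 without the knockout female pool. Of the 10 genes, 8, 10, 6 and 10 were then below 0 in that order. The sex term of that model also drew on the aged tissues, where sex goes with age. These values therefore do not isolate the weight of a single pool. The male pools by themselves, 1 array a side, gave a median of -0.37 with 10 of 10 genes lower, where 52.5% of all genes were lower. The female pools gave -0.31 with 8 of 10 lower, where 53.7% of all genes were. With the centring these counts were 9 of 10 and 7 of 10.

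**Figure D1:**
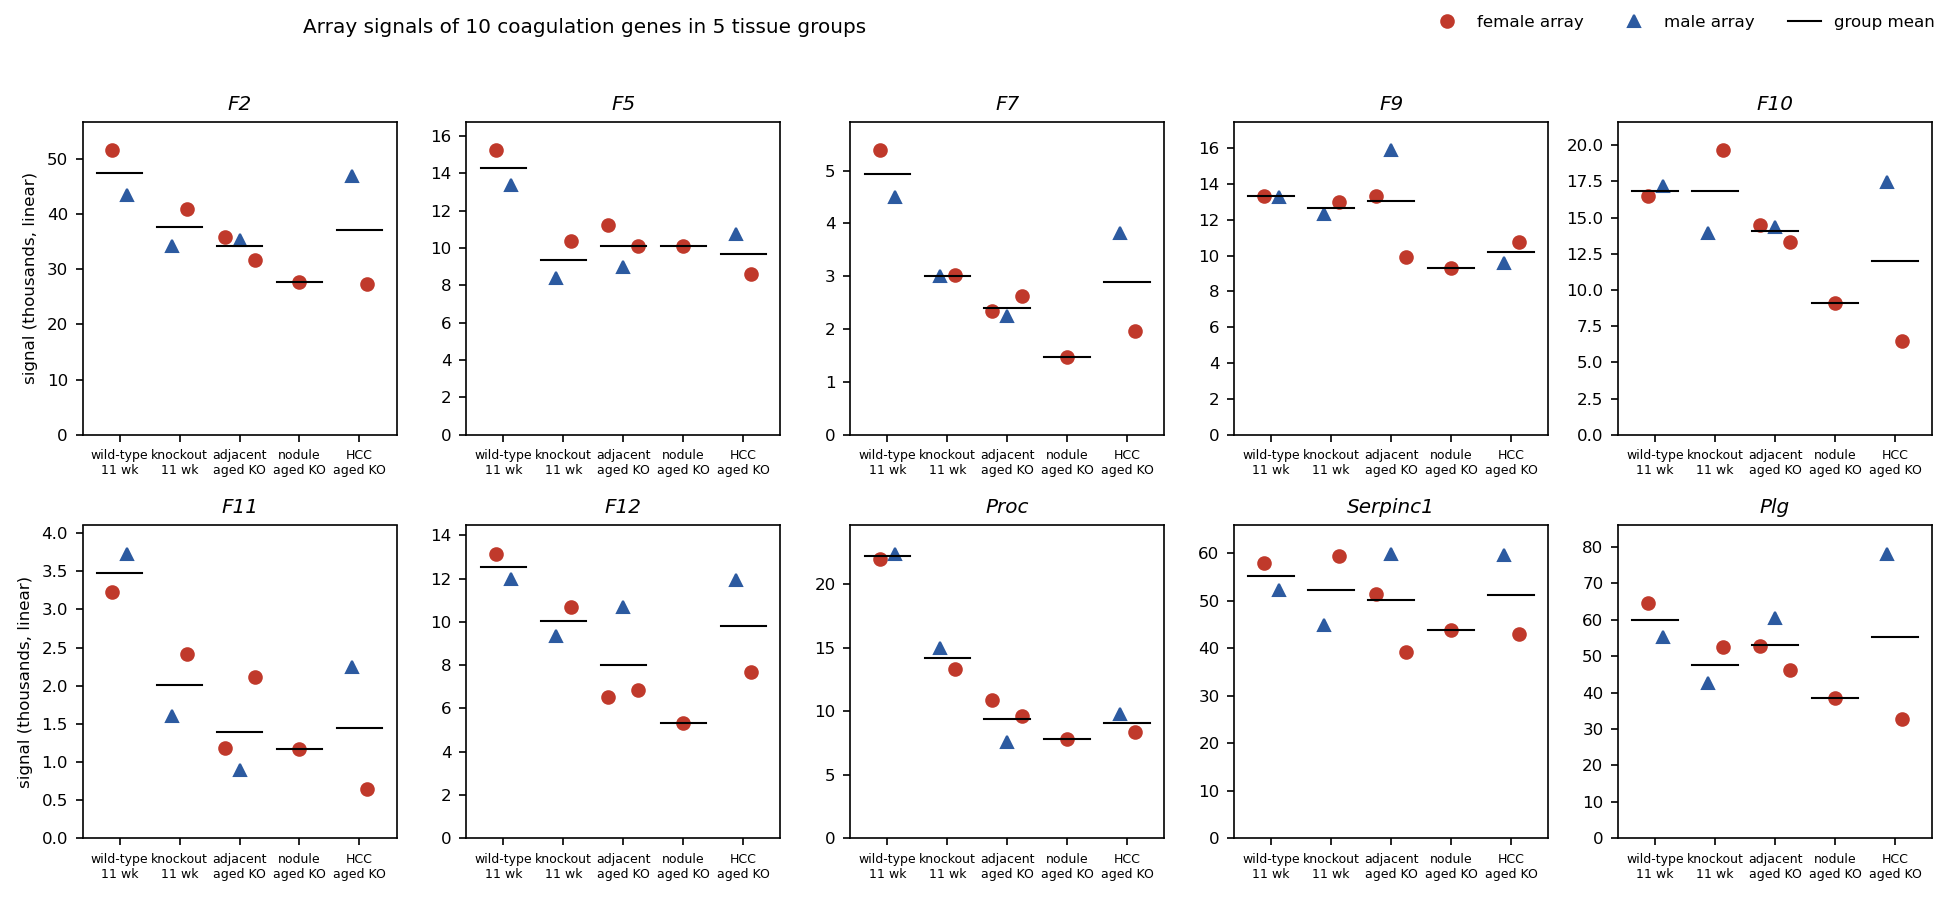
Signal of each of the 10 genes on a linear scale (axes in units as labelled) for each array in 5 groups; circles are female and triangles male arrays, and lines are group means. Both wild-type pools lie above all 8 knockout arrays for F5, F7, F11, F12 and Proc, and for 1 gene more with centring on the 75th percentile.

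F7, the factor that starts clotting on tissue factor, had signals of 5381 in the female and 4492 in the male wild-type pool, and of 3015 and 3008 in the female and male knockout pools. The knockout pools lay close together and below both wild-type pools. The fitted log2 difference was -0.70 ± 0.21 (SE, with n = 2 pools of each genotype; limma adjusted p = 0.147), and it was -0.83 between the female and -0.58 between the male pools. F11, the factor that activates factor IX, had signals of 3225 in the female and 3728 in the male wild-type pool, and of 2422 and 1603 in knockout pools. The groups did not overlap, and the male knockout pool was the lowest. Its difference of -0.81 ± 0.26 (SE, n = 2, limma adjusted p = 0.162) was the largest of the 10 genes in the fit over 4 pools, with -1.21 between the male and -0.41 between the female pools. In the model over the other arrays, the F11 difference without the male knockout pool was -0.38, smaller than that of Proc (-0.78), F7 (-0.63) and F5 (-0.49). Without the wild-type male pool, F7 (-0.95) exceeded F11 (-0.72) in that model. The left-out pool and the change of model cannot be told apart in these ranks. F12, the factor that begins the contact pathway, had signals of 13135 and 11972 in the female and male wild-type pools and 10707 and 9329.5 in knockout pools. These pools did not overlap either, with a smaller difference of -0.33 ± 0.18 (SE, n = 2, limma adjusted p = 0.378). F9, the gene of the factor lacking in haemophilia B, lay at 13348 and 13286 in wild-type pools, barely above the 12978 and 12342 of the knockout pools. Its difference was -0.07 ± 0.18 (SE, n = 2, limma adjusted p = 0.861), with a 95% interval from -0.50 to 0.35, and it was above 0 (0.077) with centring on the 75th percentile.

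F7 and F10 are direct neighbours in the RefSeq gene table, and F11 lies next to Klkb1, the gene of plasma prekallikrein. RefSeq promoter windows, from 250 bases before to 50 after the start of transcription, were found for 8 of the 10 genes in build GRCm38.p6, all except Proc and Plg. The windows of F7 and F10 are shown because these neighbours had fitted differences of -0.70 and -0.02, whose intervals overlap and whose gap was not tested, and that of F11 because it had the largest fitted difference. They lie at chr8:13025784-13026083 (F7, plus strand), chr8:13037058-13037357 (F10, plus strand) and chr8:45261982-45262281 (F11, minus strand). Capitals mark CAAAG, the short core of the HNF4 motif, and TTNNGCAA, a C/EBP motif, on either strand, so that CAAAG can read CTTTG.
F7: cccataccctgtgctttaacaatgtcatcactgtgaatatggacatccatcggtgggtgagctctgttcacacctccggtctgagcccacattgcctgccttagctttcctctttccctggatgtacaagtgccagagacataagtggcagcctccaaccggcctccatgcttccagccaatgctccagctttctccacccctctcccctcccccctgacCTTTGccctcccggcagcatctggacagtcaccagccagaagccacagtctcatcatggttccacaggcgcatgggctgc
F10: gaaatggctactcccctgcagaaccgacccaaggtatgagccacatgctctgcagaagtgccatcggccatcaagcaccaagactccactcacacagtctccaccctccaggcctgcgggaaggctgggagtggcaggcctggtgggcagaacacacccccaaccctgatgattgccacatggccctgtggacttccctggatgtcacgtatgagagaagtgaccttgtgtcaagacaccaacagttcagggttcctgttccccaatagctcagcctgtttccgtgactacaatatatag
F11: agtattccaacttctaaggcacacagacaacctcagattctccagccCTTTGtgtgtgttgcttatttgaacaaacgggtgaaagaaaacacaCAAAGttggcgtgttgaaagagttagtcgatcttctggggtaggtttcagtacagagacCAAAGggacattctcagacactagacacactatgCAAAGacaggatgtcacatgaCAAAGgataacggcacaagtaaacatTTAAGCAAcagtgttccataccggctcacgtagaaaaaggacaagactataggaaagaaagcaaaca
The F11 window held 5 matches to CAAAG, a number that 0.29% of 32851 windows of the same length reach or exceed, and 1 match to TTNNGCAA, which 10.8% of windows hold. F7 held 1 match to CAAAG, at bases -30 to -26 from the start, and F10 none. Of the windows not shown, F9 held 3 matches, F5, F12 and Serpinc1 held 1 each, and F2 held none. The fitted differences of F9 and F2 were -0.07 and -0.34, so match counts and differences were not in the same order. TTNNGCAA was found in 3 of the 8 windows, those of F11, F9 and Serpinc1. CAAAG was found in 6 of the 8 windows and in 53.93% of all windows, and the longer HNF4 motif CAAAGTCCA in 0 of 8 and in 0.47% of all. TATAAA was found in 0 of 8 and in 13.62% of all windows, and the HNF1 half-site GTTAAT in 1 of 8, that of F2, and in 7.1% of all. In the 3 windows shown, no match overlapped another. A match describes the letters only.

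F10, the protease on which both arms converge, had signals of 16473 and 17160.5 in the female and male wild-type pools and of 19629 and 13965 in the female and male knockout pools. The knockout pools lay on either side of the wild-type pools. The fitted difference was -0.02 ± 0.20 (SE, n = 2, limma adjusted p = 0.965), with a 95% interval from -0.50 to 0.46. Of the 3 probe sets of F10, this one differed by -0.30 between the male pools, while the dimmer ones differed by 0.17 and 0.10 in the other direction. All 3 were higher in the female knockout pool, by 0.25 to 0.27.

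F5, the cofactor of factor X, had signals of 15221 and 13383 in the wild-type pools and of 10362 and 8399.5 in the female and male knockout pools. The groups did not overlap, and the difference was -0.61 ± 0.19 (SE, n = 2, limma adjusted p = 0.149). The other F5 probe set gave -0.57 between the female and -0.89 between the male pools, against -0.55 and -0.67. F2, the gene of prothrombin, had signals of 51552 and 43478 in the wild-type pools and of 40923 and 34314 in knockout pools. The female knockout pool came close to the male wild-type pool without reaching it, and the difference was -0.34 ± 0.16 (SE, n = 2, limma adjusted p = 0.290).

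Proc, the gene of the anticoagulant protein C, had signals of 21991 and 22361 in the female and male wild-type pools and of 13341 and 14999.7 in knockout pools. The pools of each genotype lay close together and far from the other genotype. The difference of -0.65 ± 0.18 (SE, n = 2) had the smallest unadjusted p of the 10 genes, 0.00755, with a limma adjusted p of 0.118. After quantile normalization it was -0.78 with an adjusted p of 0.0291, the 1 call among the 10 genes under any setting. Serpinc1, the gene of antithrombin, which inhibits thrombin and factor X, had signals of 58002 and 52194 in wild-type pools, and of 59409.9 in the female and 44883 in the male knockout pool. These pools overlapped, and the difference was -0.09 ± 0.16 (SE, n = 2, limma adjusted p = 0.798), with a 95% interval from -0.46 to 0.28. Plg, the gene of plasminogen, had signals of 64577 and 55186 in wild-type pools and of 52605 and 42618.5 in knockout pools. Its difference was -0.33 ± 0.15 (SE, n = 2, limma adjusted p = 0.282), without overlap of the pools.

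**Figure D2:**
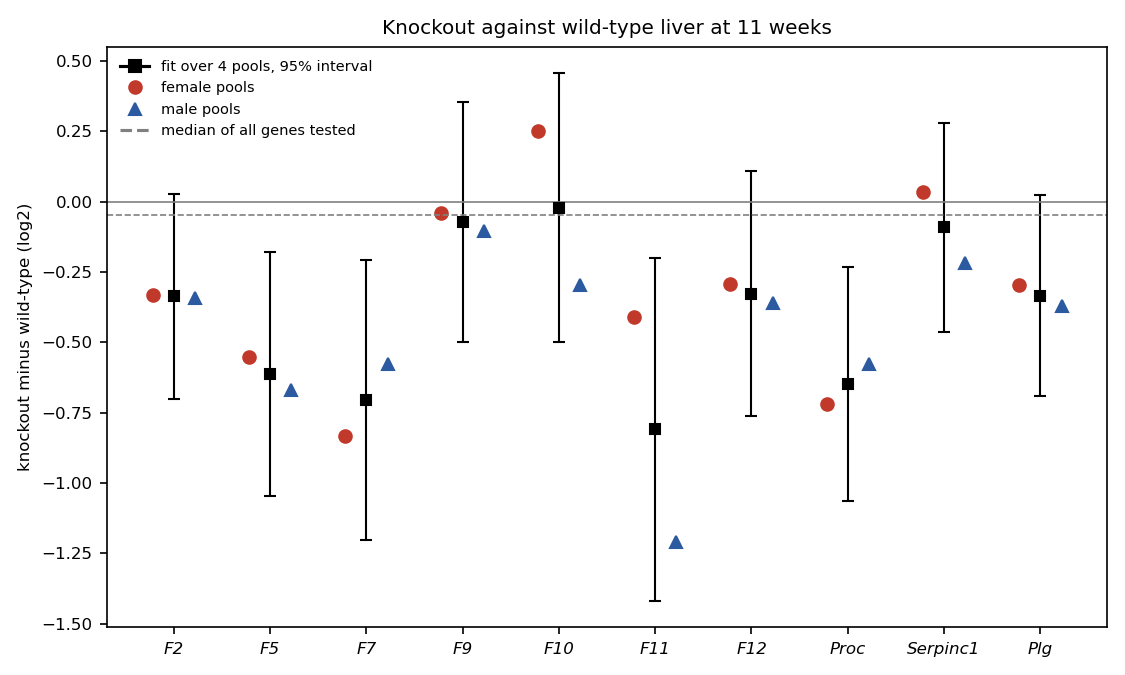
Knockout minus wild-type differences at 11 weeks on the log2 scale for the 10 genes; squares with bars are the limma fit over 4 pools with its 95% interval, circles the female pools, triangles the male pools and the dashed line the median of all genes (-0.05). All 10 squares lie below 0 (7 of 10 with centring on the 75th percentile), and the intervals of F5, F7, F11 and Proc do not reach 0 before adjustment.

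The other genes of clotting, fibrinolysis and the vitamin K cycle gave calls that the 10 genes did not. Of 50 genes in 6 lists, 46 were on the array and 41 passed the filter. In the knockout, 2 of the 41 rose and 3 fell in limma, where 1.76% of all genes were called. Of the 41 differences 29 were below 0 (24 with centring on the 75th percentile), as were 54.3% of all genes, with a median of -0.26 against -0.05 for all genes. Ggcx, the enzyme that carboxylates the vitamin K dependent factors, had signals of 1357 and 1359 in wild-type pools, and of 542 in the female and 279 in the male knockout pool. It fell by 1.76 ± 0.29 (SE, n = 2, limma adjusted p = 0.0399). Its substrates among the 10 genes did not share a size: Proc and F7 were at -0.58 or below between the pools of each sex, while F9 and F10 had fitted differences near 0 and F2 lay between. Of the 8 genes of the vitamin K cycle and processing list, Ggcx was the one called, and 6 of 8 were below 0.

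Habp2, a plasma protease that activates factor VII in vitro, had signals of 1739.6 and 1614.5 in wild-type pools, against 683 and 549 in knockout pools, and fell by 1.43 ± 0.23 (SE, n = 2, limma adjusted p = 0.0399). F8, the cofactor of factor IX that liver endothelial cells make, had signals of 655 and 615 in wild-type pools, against 212.5 in the female and 241 in the male knockout pool, and fell by 1.42 ± 0.26 (SE, n = 2, limma adjusted p = 0.0481). Endothelial markers were lower in the same pools. Of 14 tested, 3 fell and 14 were below 0 under all scalings tried, with a median of -1.06, and their summed signal was 23165 and 18293 in wild-type pools against 9766 and 9614.5 in knockout pools. Macrophage and Kupffer cell markers were below 0 for 13 of 14 with a median of -0.56 and 0 called, and their summed signal was 31089 and 21268 in wild-type against 18497 and 18297 in the knockout pools. The part of either list in the F8 result, or in those of the 10 genes, was not tested. The 18 other proteins that hepatocytes secrete (Alb, Ttr, Apoa1 and the like) had a median of -0.15 with 0 called and 15 of 18 below 0, or 9 of 18 with centring on the 75th percentile.

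The 2 genes that rose bind phospholipid. Anxa2, a cell surface receptor that brings plasminogen and its activator together, had signals of 836 and 641.5 in wild-type pools, against 2149.8 in the female and 4042 in the male knockout pool, and rose by 1.98 ± 0.32 (SE, n = 2, limma adjusted p = 0.0399). Anxa5, which covers the phospholipid that clotting needs, had signals of 1831 and 2063 in wild-type pools against 4364 and 5202 in knockout pools, and rose by 1.29 ± 0.21 (SE, n = 2, limma adjusted p = 0.0399). All 5 calls were lost in the fit without a sex term (limma adjusted p from 0.102 to 0.12) and with the mean of all probe sets (0.0597 to 0.21). F8 and Anxa5 have 1 probe set each, so their differences stayed the same there. The dimmer probe sets of Anxa2 rose by 0.25 and 0.12 between the female pools and by 3.70 and 0.56 between the male pools. The 5 calls were also lost without the intensity trend (0.207 to 0.211) and in the model over all 10 arrays (0.175 to 0.37). F8 was also lost without the filter on low signals (0.102). Fits that left out a pool used the model over all arrays, where the calls were already lost, so they cannot show which pool the calls rest on. Klkb1, the neighbour of F11, had signals of 11987 and 11710 in wild-type pools, against 8451 in the female and 4469 in the male knockout pool. Its difference of -0.94 ± 0.25 (SE, n = 2, limma adjusted p = 0.114) did not pass, except after quantile normalization (adjusted p = 0.0253), and ranged from -1.81 to -0.08 with 1 pool left out. Like F11, it differed more between the male (-1.39) than between the female pools (-0.50). The 3 fibrinogen chains Fga, Fgb and Fgg, the substrate of thrombin, had differences of -0.12 to -0.31, none called.

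**Figure D3:**
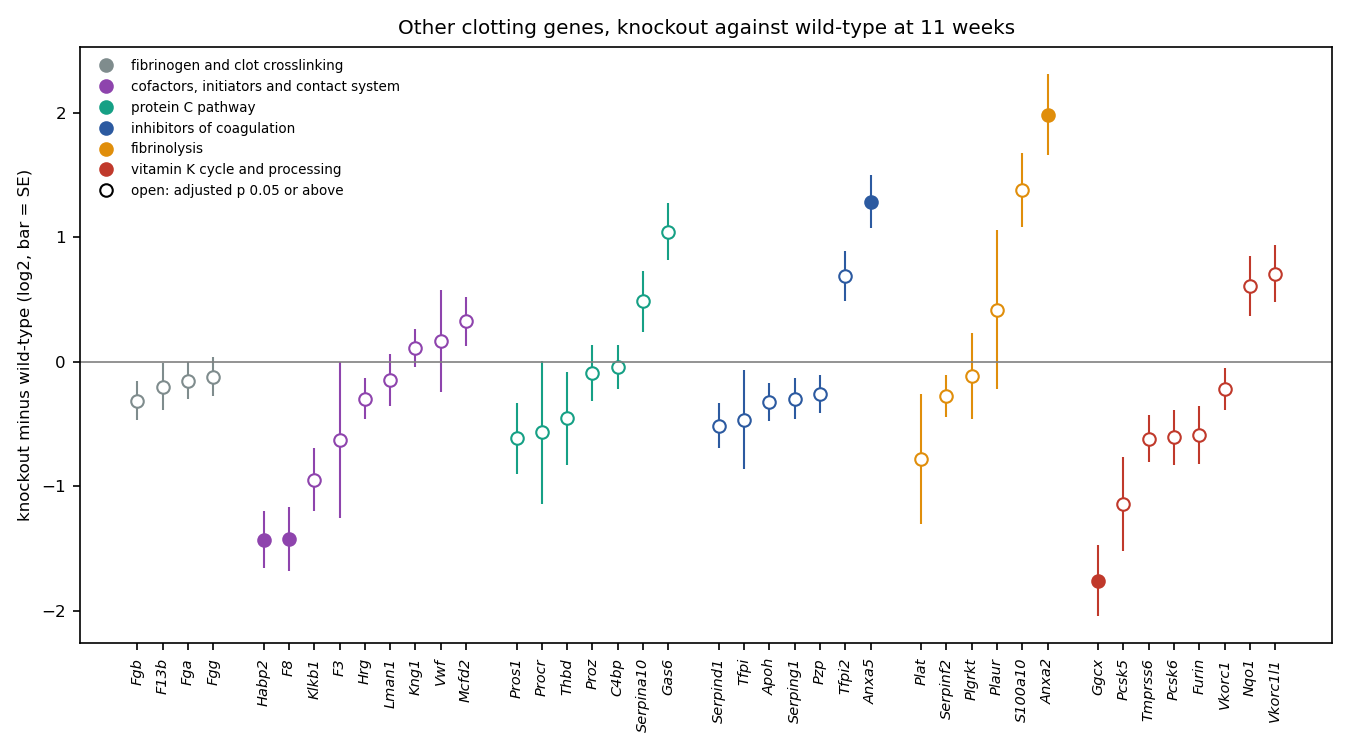
Knockout minus wild-type log2 differences (limma fit, bars are SE) of 41 other genes of clotting in 6 colour-coded lists; filled points passed an adjusted p of 0.05. Ggcx, Habp2 and F8 are filled below 0 and Anxa2 and Anxa5 above 0, and 29 of 41 points lie below 0 (24 of 41 with centring on the 75th percentile).

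No sex difference at 11 weeks passed the test in these genes. The female signal was higher for 7 of 10 genes between the wild-type pools (median 0.14) and for 9 of 10 between the knockout pools (median 0.28), where 45.7% and 48.1% of all genes were lower in females. These counts were 6 of 10 and 7 of 10 with centring on the 75th percentile. In limma 0 of 10 were called, where 0.281% of all genes were, and 0 of 10 had an unadjusted p below 0.05, where 9.19% had. The direction turned in a model over all 10 arrays, which added the aged tissues: 2 of 10 were then higher in females.

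In aged knockout liver next to a lesion, most of the 10 genes were below the young wild-type pools, though not the same genes as in young knockout liver. All 3 adjacent livers were below both wild-type pools for 7 of 10 genes, where 16.3% of all genes were, and for 9 of 10 after quantile normalization. These 7 include F10, whose young knockout pools overlapped wild-type, and leave out F9 and Plg, whose young knockout pools did not. All 8 knockout arrays, young and aged, lesions included, were below both wild-type pools for 5 of 10 genes (F5, F7, F11, F12 and Proc), where 7.3% of all genes were. For F12 the margin was thin, with 11948 in the male HCC against 11972 in the wild-type male pool. Age, tissue state and array set cannot be told apart in these statements.

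Proc had signals of 10882.5, 7542 and 9643 in the adjacent livers of the 21-month female, the 18-month male and the 14-month female. All 3 were below the young knockout pools (13341 and 14999.7), which were themselves below the wild-type pools. The limma difference against young knockout liver was -0.64 ± 0.24 (SE, n = 3 and 2, unadjusted p = 0.0306, adjusted p = 0.392). F7 in the same order had 2334, 2244 and 2631, again below both young knockout pools, with a difference of -0.34 ± 0.21 (SE, n = 3 and 2, limma adjusted p = 0.515). F11 had 1180.4, 890.2 and 2113, so that the 14-month female lay between the young knockout pools, with a difference of -0.71 ± 0.30 (SE, n = 3 and 2, limma adjusted p = 0.406). Proc and F7 were the 2 of 10 genes whose adjacent livers all lay below both young knockout pools, where 10.7% of all genes did, and 5 of 10 did with centring on the 75th percentile. Of the 10 fitted differences against young knockout liver 7 were below 0, as were 42.7% of all genes, but 10 with that centring and 3 without the female knockout pool. The centring moved the median of all genes from 0.08 to -0.10, and leaving out that pool moved it to 0.16. Matching shares of all genes were not counted for either setting. In this comparison 0 of 10 genes and 0% of all genes were called in limma, though leaving out that pool called 366 genes, and leaving out the adjacent liver of the 21-month or 14-month female called 153 or 9. An unadjusted p below 0.05 was reached by 1 of 10, Proc, where 4.6% of all genes reached it on the lower side. This count was 2 without the male knockout pool or the male adjacent liver, and 0 without the adjacent liver of the 21-month female.

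The remaining genes did not share a pattern in adjacent liver. F5 had 11245, 8987 and 10132.5 in the 3 adjacent livers, within or just above the range of the young knockout pools. F12 had 6541 and 6866 in the females and 10661 in the male, which alone lay in the range of the young knockout pools. F9 spanned 9908.5 to 15869.5 and Serpinc1 39139.8 to 59832, each wider than the range of the 4 young pools, while Plg (46283 to 60387.5) lay within that range. F2 (31697 to 35870.5) and F10 (13331 to 14469.6) lay in narrow bands below the wild-type pools.

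The dysplastic nodules of the 21-month female had lower signals than the adjacent liver for 10 of 10 genes (9 of 10 after quantile normalization, where Serpinc1 was at 0.02), where 47.9% of all genes were lower. There is 1 array a side and no test. The median log2 difference was -0.41 for the 10 genes and 0.02 for all genes. F10 lay below the adjacent liver most, with 9116 against 14469.6 (-0.67), followed by F7 with 1474 against 2334 (-0.66) and F9 with 9294 against 13327 (-0.52). F11 was level, with 1169 against 1180.4 (-0.01). None of the 10 was past 2-fold with the probe set used, as 3.87% of all genes were on the lower side. The dimmer probe sets of F10 gave -1.16, which is past 2-fold, and -0.74. The other hepatocyte secreted proteins were lower too, 18 of 18 with a median of -0.44 (12 of 18 and -0.15 after quantile normalization). The summed macrophage marker signal was 37334 in the nodules against 16416 in the adjacent liver, with 11 of 14 higher (median 0.89). Stellate and fibroblast markers were higher for 8 of 10 (0.83) and endothelial markers for 11 of 14 (0.34). B and plasma cell markers were higher for 0 of 6 (-0.76). The part of these lists in the result was not tested.

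The 2 carcinomas went opposite ways. In the male, 8 of 10 genes were higher in the HCC than in the adjacent liver, where 53.7% of all genes were lower, with a median of 0.33 against -0.04 for all genes. In the female, 7 of 10 were lower, where 48.6% of all genes were, with a median of -0.22 against 0.02 for all genes. The combination of higher in the male and lower in the female HCC held for 7 of 10 genes under each of the 3 scalings, where 20.8% of all genes had it. F9 and Serpinc1 had the reverse, as 26% of all genes did, and F12 was higher in both, as 25.5% were. None was lower in both, as 27.7% were. The 2 mice differ in sex, age and lesion at once, and these cannot be told apart. The Actb 3' to 5' ratio also differed within the pairs, at 3.0 in the male HCC against 3.62 in its adjacent liver, and at 3.46 in the female HCC against 2.61. Its part in the split was not tested.

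F11 had the widest gap, at 2249.6 in the male HCC against 890.2 in its adjacent liver (1.32 on the log2 scale), and 642 in the female HCC against 2113 (-1.69). The 2 adjacent livers were themselves in the opposite order to the 2 carcinomas. F10 was at 17464.5 against 14325 in the male pair (0.29) and 6485.5 against 13331 in the female pair (-1.04), the lowest F10 signal of the 10 arrays. Its dimmer probe sets gave 0.79 and 0.57 in the male, and -0.28 and -0.17 in the female, the same directions with other sizes. F7 was at 3822 against 2244 in the male pair (0.76) and 1958 against 2631 in the female pair (-0.42). Plg reached 78027 against 60387.5 in the male HCC (0.37), its highest signal of all arrays, and its lowest, 32653 against 46283, in the female HCC (-0.50).

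Prothrombin followed, with F2 at 46899.8 against 35368 in the male pair (0.41) and 27348.5 against 31697 in the female pair (-0.21). F5 differed by 0.26 and -0.23, and Proc by 0.37 and -0.21, in the male and female. The second F5 probe set was higher in both carcinomas (0.56 and 0.12), so the direction in the female depends on the probe set. F9 ran the other way, at 9598 against 15869.5 in the male HCC (-0.72) and 10779.9 against 9908.5 in the female HCC (0.12). F12 was higher by 0.16 in each, and Serpinc1 differed by -0.01 and 0.14.

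Endothelial and macrophage markers were mostly higher in the male HCC and mixed in the female HCC. Stellate and fibroblast markers were higher for 4 of 10 in the male (median -0.07) and for 7 of 10 in the female (0.50). B and plasma cell markers were higher for 2 of 6 (-0.20) and 4 of 6 (0.14) in that order. Megakaryocyte and platelet markers were higher for 0 of 3 (-0.19) and 2 of 3 (0.42). In the male, endothelial markers were higher for 14 of 14 (median 0.42) and macrophage markers for 11 of 14 (0.23), and the summed endothelial markers were at 22499 in the HCC against 16450.3 in the adjacent liver and the macrophage markers at 55511 against 40247. In the female, 8 of 14 endothelial markers were higher (median 0.043, or -0.018 with centring on the 75th percentile) and 6 of 14 macrophage markers (-0.080), though the sums were 10557 against 9897 and 38619.9 against 33254. Both arrays of the 18-month male held neutrophil marker sums of 14947 and 15004.7, against 301 to 1487 on the other 8 arrays. The other hepatocyte secreted proteins were higher in the male HCC in 13 of 18 cases (median 0.21, or 0.04 after quantile normalization) and split 9 and 9 in the female (-0.03). The part of these values in the clotting genes was not tested.

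Over both carcinomas, 0 of 10 genes were called in limma with the mouse as a term, where 0.109% of all genes were called, and 0 of 10 had an unadjusted p below 0.05, where 7.67% of all genes had. That last count was 3 without the male HCC and 1 without the female HCC, in a model over the other arrays. F10 had a fitted difference of -0.38 ± 0.35 (SE, n = 2 pairs, limma adjusted p = 0.886), which the mean of its 3 probe sets turned to 0.025. Over all 3 lesions, 0 of 10 were called, where 0.00907% of all genes were, and 0 of 10 had an unadjusted limma p below 0.05, where 9.99% had, or 2 of 10 without the male pair. F10 (-0.47 ± 0.28, SE, n = 3 pairs, adjusted p = 0.627) and F9 (-0.37 ± 0.22, adjusted p = 0.629) were the lowest in the limma fit. None of the 10 genes was lower in all 3 lesions, where 16.4% of all genes were, and none was higher in all 3, where 16% were.

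**Figure D4:**
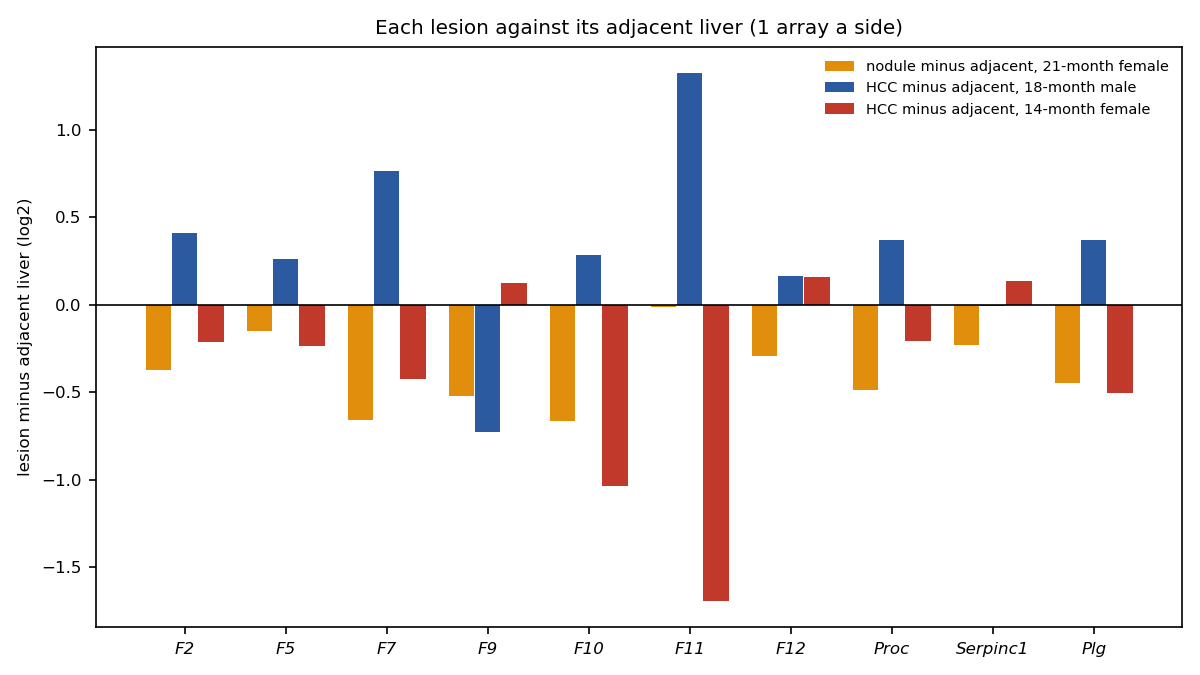
Lesion minus adjacent liver on the log2 scale for the 10 genes, 1 array a side; bars are the nodules of the 21-month female, the HCC of the 18-month male and the HCC of the 14-month female. The nodule bars lie below 0 for all 10 genes (9 of 10 after quantile normalization), and the 2 HCC bars point opposite ways for 9 of 10 genes, most for F11 (1.32 and -1.69). Of these, 7 are higher in the male and lower in the female, as are 20.8% of all genes, and 2 are the reverse, as are 26%. The male bar of Serpinc1 is almost at 0 (-0.0059).

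Of the 41 other clotting genes, 5 were lower and 6 higher in all 3 lesions, no larger a share than among all genes (16.4% lower and 16% higher), so the genes named here are descriptions. Klkb1 was lower in each, at 1779 against 4157 in the nodules, 525 against 1078.5 in the male HCC and 2549.8 against 4747 in the female HCC. Lesion and adjacent values overlapped across mice, and the paired limma difference of -1.04 ± 0.18 (SE, n = 3 pairs, adjusted p = 0.214) did not pass. It thus parted from its neighbour F11, which was level in the nodules and split between the carcinomas. Anxa2 was higher in each lesion, by 2.53, 0.42 and 2.36 on the log2 scale in the nodules, the male and the female HCC, and Plat, the gene of tissue plasminogen activator, by 2.80, 0.68 and 2.57. None of the 41 other clotting genes was called in limma in either lesion comparison. Ggcx, low in the young knockout, was at 511 to 929 in the aged arrays against 1357 and 1359 in wild-type liver, and differed by 0.84, 0.30 and -0.08 in the same 3 lesions.

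Across the 10 arrays, the genes varied by very different amounts. The highest signal was 5.81 times the lowest for F11, 3.65 times for F7, 3.03 times for F10 and 2.96 times for Proc, but 1.53 times for Serpinc1, 1.71 times for F9 and 1.81 times for F5. F11 varied more than 87.1% of all genes tested and Serpinc1 more than 8.27%, by the SD of log2 signals. As a description over 10 arrays that share scaling and mix genotype, age and lesion, F2 followed the mean of the other 9 genes most closely (Pearson r = 0.957), then F7 (0.927), and F9 least (0.363). F11 and F9 had an r of 0.06 although one activates the other as a protein. Outside the 10 genes, those most like their mean were Sfxn2 (r = 0.950), Sdc2 (0.943), Slc17a2 (0.942), Amigo2 (0.933), Nectin3 (0.927) and Zc3h14 (0.926), over the same 10 arrays.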

How the data were processed

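Liver RNA was measured on 10 Affymetrix arrays. Per the labels, the authors labelled cRNA from 5 ug of total RNA, and the submitters' processing notes name the GCOS software, with version and settings not given in the sources used here. Each deposited value is a linear intensity of 1 probe set, with a trimmed mean of 500 on every array (2% left out at each end). Detection calls were not used here.

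Of 45101 probe sets, 34945 had 1 gene in the platform annotation, 932 had several, and 9211 were absent from it. Analyses used log2 of the signal plus 16.8, the 20th percentile of signals, so differences are on the log2(signal + 16.8) scale, which understates those of dim genes. The probe set with the highest mean stood for each gene, and genes whose mean log2 was above that of a signal of 91.0 were tested. Genes and lists were chosen with earlier results of these data known. Beside the 10 genes, each list's called genes and up to 2 with the largest difference per comparison could be named, and the 6 genes most like the mean.

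Models were fitted with limma 3.58.1 in R 4.3.3, with an intensity trend, and p-values adjusted by Benjamini-Hochberg over 11021 genes. Terms were genotype and sex at 11 weeks, the mouse inferred from sex and age for lesions, and sex for adjacent against young knockout liver. Arrays of a group are separate pools or tissues. Errors came largely from the spread shared across genes. A gene's own part was how far its difference departed between the sexes at 11 weeks, or between mice for lesions. For adjacent against young knockout liver it was the spread between arrays left after the sex term. The procedure was tested on simulated data, where the share of false calls was above the set threshold in all 5 comparisons, most where 1 residual degree of freedom was left. Alternatives were other added constants, scalings, filters, probe set rules, terms and left-out arrays. A model over all 10 arrays was added after seeing the data. Leaving out an array in a 4-array comparison used that model, with a lone array assumed to vary like the others. Promoter windows came from RefSeq (GRCm38.p6). Protein sequences were not used here.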

Additional observations from a re-analysis of the deposited data

Results flagged for a closer look

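Opposite directions in the 2 sexes were the reason to list the following log2 differences, each from 1 female and 1 male array pair. None of these differences between the sexes was tested, and in the carcinomas sex goes with age.

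In knockout minus wild-type liver at 11 weeks, F10 was at 0.25 in females and -0.30 in males, and Serpinc1 at 0.035 and -0.22. In HCC minus adjacent liver, the female values were lower than 0 and the male values higher for 7 genes, as for 20.8% of all genes. F11 was at -1.69 in the female and 1.32 in the male, F10 at -1.04 and 0.29, F7 at -0.42 and 0.76, and Plg at -0.50 and 0.37. F2 was at -0.21 and 0.41, Proc at -0.21 and 0.37, and F5 at -0.23 and 0.26. F9 ran the other way, at 0.12 in the female and -0.72 in the male, as did Serpinc1 at 0.14 and -0.0059.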

How the results depend on the processing

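The count of 0 of 10 clotting genes called in limma held in each of the 5 comparisons under all alternatives but 1: quantile normalization called 1 gene, Proc, in the knockout. Dropping the mouse term (no pairing block) also left 0 of 10 in both lesion comparisons. The inferred pairing rests on sex and age labels. In the knockout comparison, F9 (0.077), F10 (0.13) and Serpinc1 (0.059) turned positive with centring on the 75th percentile, and F10 (0.13) with the mean of its probe sets. Leaving out 1 pool gave ranges of -0.18 to 0.030 for F9, -0.50 to 0.45 for F10, -0.42 to 0.24 for Serpinc1, -0.70 to 0.030 for Plg, -0.56 to -0.12 for F2, -0.64 to -0.018 for F12, -1.24 to -0.38 for F11, -0.95 to -0.46 for F7, -0.73 to -0.49 for F5 and -0.78 to -0.51 for Proc. These ranges come from the model over the other arrays, whose sex term also drew on the aged tissues. In the carcinomas F10 turned to 0.025 with the mean of its probe sets, and ranged from -1.15 to 0.39 with 1 array left out. In the nodules, quantile normalization moved F2 to -0.20, F10 to -0.53 and Plg to -0.18, centring on the 75th percentile moved F2 to -0.50, F7 to -0.78 and F10 to -0.79, and the mean of the probe sets moved F10 to -0.85. The causes were not tested.

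Counts of all genes called were less stable. In the knockout comparison 194 became 631 (quantile), 360 (75th percentile), 38 (mean of probe sets), 1 (no trend), 2 (no sex term), 1 (all 10 arrays) and 0 to 6 (1 pool left out). Between the sexes 31 became 98 (quantile), 19 (mean of probe sets), 3 (no trend), 20 (all arrays) and 5 to 24. In the carcinomas 12 became 20 (doubled constant), 4 (either scaling), 19 (no filter), 0 (no trend, or no mouse term), 1 (all arrays) and 0 to 3. Over all lesions 1 became 3 (75th percentile, or no filter), 0 (mean of probe sets, or no mouse term) and 2 to 165. Against young knockout liver 0 became up to 366. Centring on the 75th percentile moved the median of all genes by 0.15, -0.12 and -0.18 in the knockout, sex and adjacent liver comparisons. Signal over background could not be judged without detection calls.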
